A study of Homo sapiens with 14 samples.

Results

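The very long transcribed regions of the genome were compared between HEK293T cells with SETD2 knocked out (KO cells) and unmodified, wild type HEK293T (WT cells). HEK293T is a human line from embryonic kidney, transformed by adenovirus DNA and expressing the large T antigen of SV40. The members were 605 loci on chromosomes 1 to 22 that span at least 300000 bases and hold fewer than 20 annotated transcripts, out of 35671 loci in the series and 31895 on these chromosomes. A locus here is a stretch covered by overlapping transcripts in the authors' tables; 0 of the loci overlapped the next, so a locus can hold more than 1 gene. Of 1029 loci of that length, 424 held 20 or more transcripts and were not members, and 0 were left out for a failed estimate. Neither the length nor the number of transcripts uses the measured RNA. The labels list 3 RNA libraries of SETD2 knockout cells and 3 of wild type cells, name no agent, and do not say whether the knockout is 1 clone or whether libraries came from separate cultures. The 8 ChIP samples of the series, against H3K36me3 and H4K16ac, were not analysed here.

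As background, a very long gene takes RNA polymerase II a long time to cross, and most of its transcript is intron that is removed while the polymerase is still moving. SETD2 is a histone methyltransferase that travels with the elongating polymerase and lays down H3K36me3, the trimethylation of histone H3 at lysine 36, over gene bodies. The mark takes part in splicing, in DNA repair and in silencing starts of transcription inside genes. In vertebrates, many of the longest genes encode adhesion molecules, channels and receptors of nerve cells, and several lie at common fragile sites, where chromosomes break when replication is slowed. The tables list transcripts by ID alone: 0 of the 6603 transcript IDs of the long loci matched the tables of gene names used here. Loci are therefore given by position on hg19, no gene is named, and neither the knockout nor the cell type was checked through named genes.

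The tables hold 1 FPKM value per transcript and group. FPKM counts sequenced fragments relative to the length of the transcript and the total mapped, so a short RNA with few fragments can carry a high value. The tables give neither values per library nor read counts, so the depth and the scatter of the libraries cannot be given. In RNA from whole cultures, fewer cells with a transcript and less of it per cell cannot be told apart. Errors below are the bounds the authors deposited in their tracking table, which does not state their level. The authors' table of tests and their tracking table give different knockout values. Over 969 transcripts of long loci with at least 0.5 FPKM, the tracking value was 0.652 to 1.41 times the value in the table of tests in KO cells (5th to 95th percentile), and 0.974 to 0.978 times over 934 transcripts in WT cells. Values below come from the table of tests unless the tracking table is named. A transcript is called where the authors' q-value was at most 0.05.

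The long loci were 301 to 2305 kb long, with a median of 424 kb, and 31 of them spanned 1000000 bases or more. They made up 1.90% of the loci on chromosomes 1 to 22 but 20.5% of the length those loci cover. A long locus held a median of 11 transcripts, against 1 transcript at the 28974 shorter loci with the same limit on transcripts. The median distance to the nearest other locus was 15.5 kb for long loci and 5.90 kb for shorter loci. Within 2 Mb of the centre of a long locus lay a median of 30 other loci, against 52 around a shorter locus. Their share of the loci of a chromosome was 3.26% on chromosome 3, 3.03% on chromosome 4 and 0.186% on chromosome 19, where 3 long loci were found.

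Most long loci were transcribed at a low level in both genotypes. Summed over its transcripts, a long locus reached 1 FPKM in KO cells in 329 cases and in WT cells in 320 cases. These are 54.4% of the long loci in KO cells and 52.9% in WT cells, while 31.3% of shorter loci reached that level in KO cells and 31.7% in WT cells. Both groups were listed at 0 for 68 long loci (11.2%), against 44.5% of shorter loci. A locus is called expressed below where either group reached 1 FPKM and neither was at 0, which held for 345 long loci. Among these the median sum was 5.52 FPKM in KO cells and 5.77 FPKM in WT cells. Expressed shorter loci stood higher, at medians of 13.7 FPKM in KO cells and 12.8 FPKM in WT cells. Only KO cells were at 0 for 57 long loci (9.42%) and only WT cells for 6 (0.992%), against 10.1% and 1.20% of shorter loci, and in the tracking table the numbers of long loci were 50 and 9. One of the 57 was well above 1 FPKM in the other group, chr8:116962736-117337297, listed at 0 in KO cells and at 5.96 FPKM in WT cells. Just 11 long loci reached 100 FPKM in KO cells and 12 in WT cells. The share of expressed loci was 58.6% among 261 long loci of 300000 to 400000 bases and 48.4% among the 31 of 1000000 bases or more. It was 32.4% among the 102 long loci with up to 5 transcripts and 78.1% among the 128 with 16 to 19.

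**Figure D1:**
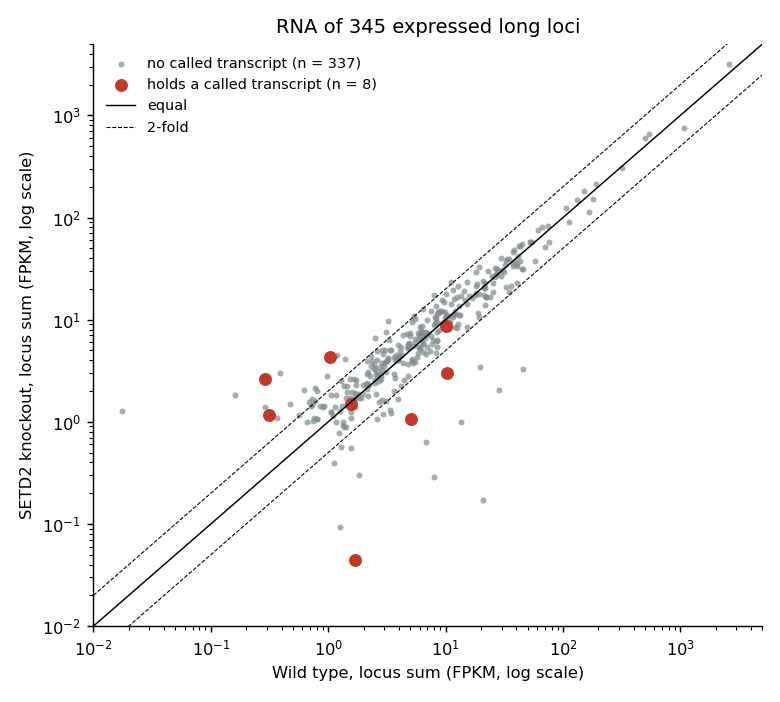
Locus sums of FPKM in KO cells (vertical, log scale) against the wild type (horizontal, log scale) for the 345 expressed long loci, with lines at equal values and at 2-fold. Most points lie between the 2-fold lines, the points far below them are led by a locus at 0.170 FPKM in KO cells and 20.7 FPKM in WT cells, and the loci with a called transcript stand at low levels.

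One transcript made up most of the sum at the loci with the highest levels. The top locus, chr11:81590893-82429124, stood at 3157 FPKM in KO cells and 2599 FPKM in WT cells, which is 31.2% of the FPKM of all long loci in KO cells and 26.8% in WT cells. Of its 9 transcripts, ENST00000473748 had 2416 FPKM in KO cells and 1802 FPKM in WT cells, and ENST00000536099 had 741.7 FPKM in KO cells and 796.4 FPKM in WT cells. At the next locus, chr2:236402733-237040444, the transcript ENST00000415070 carried 98.7% of the sum, with 735.8 FPKM in KO cells and 1054 FPKM in WT cells. Over the 10 highest loci the leading transcript held at least 67.5% of the sum.

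None of the transcripts of these 10 loci was called. The log2 ratio of knockout over wild type sums ran from -0.55 to 0.28 and was above 0 at 6 of them, and in the tracking table it ran from -0.27 to 0.49 and was above 0 at 7. The bounds of the leading transcript overlapped between the groups at each of the 10, and its smallest p-value in the authors' deposited table was 0.144. At chr5:32925745-33298016, where this smallest value stood, ENST00000467270 had 681.1 FPKM (467.3 to 894.9) in KO cells and 530.2 FPKM (363.3 to 697.0) in WT cells in the tracking table. At chr5:92953775-93447404 the leading transcript stood at 302.4 FPKM in KO cells and 302.6 FPKM in WT cells.

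Across all expressed long loci the knockout and the wild type held nearly the same level. The median log2 ratio was 0.12 over 345 long loci, 0.06 over 9397 shorter loci and 0.06 over all 12467 expressed loci of the series. In the tracking table the same loci had medians of 0.06 for the long and 0.08 for the shorter loci, so which class stood higher depended on the table. The knockout value was the higher one at 61.7% of long loci and 56.0% of shorter loci in the table of tests, and at 54.5% of long loci and 58.5% of shorter loci in the tracking table. Since loci are no replicates of a genotype, no test of this difference was run.

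By length, the median log2 ratio did not climb steadily. It was 0.04 under 3000 bases, -0.03 from 3000, 0.01 from 10000, 0.11 from 30000, 0.15 from 100000 and 0.12 from 300000 bases upward. In the tracking table the 6 classes lay between 0.06 and 0.11. Among the long loci alone the Spearman correlation of length with the log2 ratio was -0.0705 over 345 loci, and -0.0546 in the tracking table. The points of this correlation share the same libraries, and it is given as a description. Split by length, the median was 0.13 over 153 long loci under 400000 bases and 0.10 over 127 from there to 600000 bases. It was -0.03 over 50 loci from 600000 to 1000000 bases and 0.21 over the 15 longer ones.

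**Figure D2:**
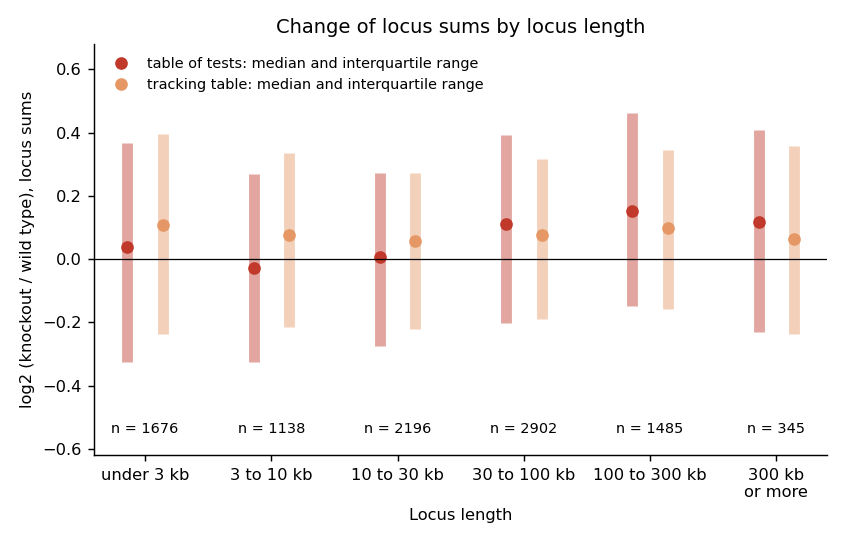
Median (point) and interquartile range (bar) of the log2 ratio of locus sums, knockout over wild type, in 6 classes of locus length, for the table of tests and for the tracking table. The bars overlap throughout, and the class of 300000 bases or more has medians of 0.12 in the table of tests and 0.06 in the tracking table.

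The sums of 4 of the 5 longest loci lay within 1.28-fold of each other in the groups. The longest, chr7:145813453-148118090, spans 2.30 Mb and stood at 5.52 FPKM in KO cells and 4.77 FPKM in WT cells. The second, chr2:140988992-142895399, stood at 18.2 FPKM in both. Its leading transcript ENST00000427448 had 17.1 FPKM in KO cells and 13.5 FPKM in WT cells, while its other transcripts summed to 1.13 FPKM in KO cells and 4.67 FPKM in WT cells. The third, chr10:67672276-69455927, was barely transcribed, at 0.0140 FPKM in KO cells and 0.0594 FPKM in WT cells, and had 0 tested transcripts. The remaining loci of the 5 both lie on chromosome 3. One, chr3:75955846-77699115, stood at 17.2 FPKM in KO cells and 13.4 FPKM in WT cells, and the other, chr3:59735036-61237133, at 5.74 FPKM in KO cells and 4.81 FPKM in WT cells. In the last, the leading transcript ENST00000465330 had 3.94 FPKM in KO cells and 0.415 FPKM in WT cells with p = 0.374 in the authors' deposited table, while the other transcripts summed to 1.80 FPKM in KO cells and 4.40 FPKM in WT cells. None of the 5 held a called transcript. Just above the length limit, chr10:131265448-131566271 was listed at 0 in both groups and chr5:82348665-82649606 stood at 48.5 FPKM in KO cells and 38.4 FPKM in WT cells. Just below it, chr10:64926981-65226323 stood at 13.4 FPKM in KO cells and 11.6 FPKM in WT cells, and chr2:48168835-48468122 at 0 FPKM in KO cells and 0.00528 FPKM in WT cells.

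The authors' test called 9 transcripts at 8 long loci, 4 that rose and 5 that fell in KO cells. These are 9 of the 1496 tested transcripts of long loci (0.602%), while 0.255% of all 85852 tested transcripts were called, 0.0629% as higher and 0.192% as lower. Counted by loci, 8 of the 391 long loci with a tested transcript held a call (2.05%), against 1.5% of all loci with a tested transcript. The count depends on the limit on transcripts: with loci of 20 or more transcripts added, 12 of 6536 tested transcripts were called (0.184%). The loci of 100000 to 300000 bases had 12 calls among 8040 tested transcripts (0.149%), the lowest share of the length classes. In the other classes it was 1.88% under 3000 bases, 0.591% from 3000, 0.323% from 10000 and 0.243% from 30000 bases. Only 22.7% of the transcripts at long loci were tested at all, against 42.1% over the whole table. All 9 calls had the same values in the authors' deposited table, p = 5e-05 and q = 0.0220. The called transcripts of long loci were low, none above 5.43 FPKM in either group.

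The largest called rise was at chr13:107820883-108519083, a locus of 698 kb and 5 transcripts. ENST00000375915 stood at 2.44 FPKM in KO cells and 0.280 FPKM in WT cells, 8.71-fold higher in KO cells. The bounds in the tracking table were 1.1 to 2.95 FPKM in KO cells and 0.0630 to 0.483 FPKM in WT cells, and did not overlap. This transcript held 93.8% of the sum of its locus. The locus lies in the distal part of chromosome 13, where 6 expressed long loci from 72 Mb onward had a median log2 ratio of 0.29 and the 84 other expressed loci there one of 0.33.

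A second rise lay on chromosome 18 at chr18:42260138-42648475, where ENST00000282030 stood at 1.13 FPKM in KO cells and 0.232 FPKM in WT cells, 4.87-fold higher in KO cells. Its bounds of 0.519 to 1.32 FPKM in KO cells and 0.0905 to 0.362 FPKM in WT cells did not overlap. At chr20:10618332-10975572, ENST00000254958 stood at 3.04 FPKM in KO cells and 0.708 FPKM in WT cells, a 4.29-fold rise with bounds of 1.44 to 3.76 FPKM in KO cells and 0.238 to 1.14 FPKM in WT cells. Its other transcripts were higher in KO cells too, at 1.25 FPKM summed, against 0.325 FPKM in WT cells. The fourth rise, at chr18:67068291-67629039, was not seen in the sum of its locus. ENST00000382713 stood at 0.774 FPKM in KO cells and 0.223 FPKM in WT cells, and the 17 transcripts together at 1.49 FPKM in KO cells and 1.57 FPKM in WT cells. Its bounds of 0.316 to 0.904 FPKM in KO cells and 0.0745 to 0.361 FPKM in WT cells overlapped.

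Among the falls, the largest was at chr7:140774032-141180180. ENST00000565468 stood at 0.0441 FPKM in KO cells and 1.11 FPKM in WT cells, a 25.2-fold fall, with bounds of 0 to 0.0924 FPKM in KO cells and 0.638 to 1.53 FPKM in WT cells. The other transcripts of this locus summed to 0 in KO cells and 0.586 FPKM in WT cells. At chr8:121072019-121384275, ENST00000309791 stood at 0.346 FPKM in KO cells and 1.79 FPKM in WT cells, and its other transcripts at 0.732 FPKM in KO cells and 3.27 FPKM in WT cells. The whole locus was 4.70-fold lower in KO cells, and the bounds of the called transcript, 0 to 0.542 FPKM in KO cells and 0.637 to 2.86 FPKM in WT cells, lay apart.

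The locus chr17:5675554-6027747 was the 1 long locus with a pair of calls. ENST00000571494 stood at 1.46 FPKM in KO cells and 5.43 FPKM in WT cells, and ENST00000317744 at 0.489 FPKM in KO cells and 1.97 FPKM in WT cells. The locus sum was 2.98 FPKM in KO cells and 10.3 FPKM in WT cells, 3.46-fold lower in KO cells. The bounds of both transcripts overlapped between the groups in the tracking table. At chr2:154728426-155313950 the called transcript ENST00000392825 stood at 1.28 FPKM in KO cells and 3.49 FPKM in WT cells, a 2.73-fold fall with bounds that overlapped. The other 13 transcripts of that locus summed to 7.47 FPKM in KO cells and 6.6 FPKM in WT cells, so the locus sum, 8.75 FPKM in KO cells and 10.1 FPKM in WT cells, differed little. Over the 9 calls the bounds of both groups lay apart for 5. The share over all 219 called transcripts is not given here, so this count is not read as particular to long loci.

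**Figure D3:**
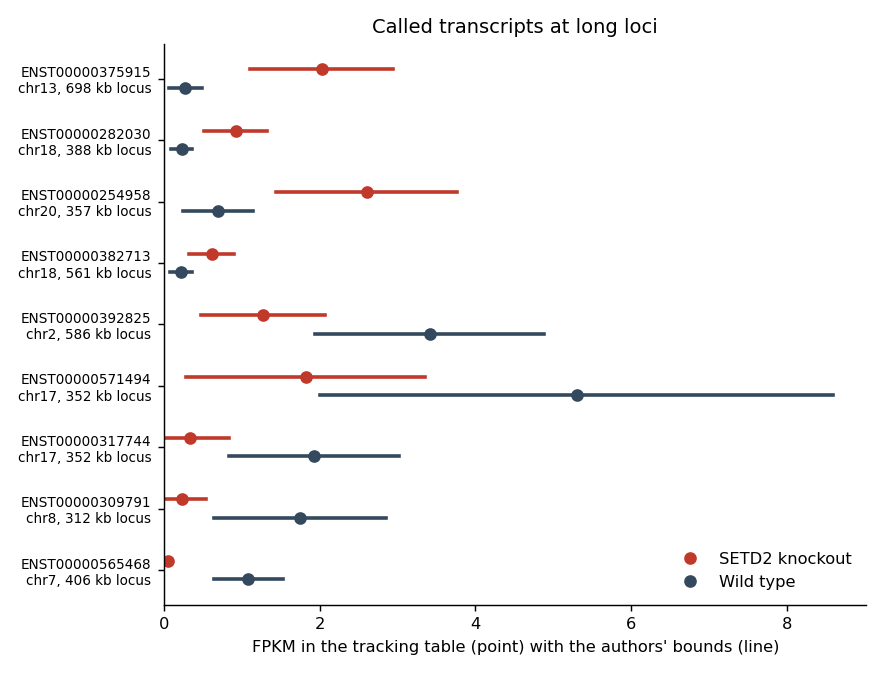
The 9 called transcripts of long loci, with the tracking-table FPKM (point) and the authors' bounds (line) for SETD2 knockout cells above wild type cells in each row. The bounds lie apart for 5 of the 9 transcripts, and each point stands at or below 5.30 FPKM.

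The next transcripts in the authors' ranking missed the threshold. ENST00000266037 at chr3:50712672-51421629 stood at 2.10 FPKM in KO cells and 3.87 FPKM in WT cells, with q = 0.0532 in the authors' deposited table. ENST00000303531 at chr16:23847322-24231932 stood at 0.541 FPKM in KO cells and 1.91 FPKM in WT cells, with q = 0.0780 in that table. Higher in level was ENST00000378700 at chr6:19535175-19840915, with 31.5 FPKM in KO cells and 18.5 FPKM in WT cells and q = 0.136 in the same table. At an unadjusted p under 0.05 the authors' table listed 48 of the tested transcripts of long loci (3.21%), 24 in each direction, against 2.38% of all tested transcripts. Under 0.01 it listed 28 (1.87%), against 0.934% of all tested transcripts.

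Larger differences of whole loci were found mainly at low levels. The sum was at least 2-fold higher in KO cells at 27 of 345 expressed long loci (7.83%) and at least 2-fold lower at 20 (5.80%). Over all 11869 expressed loci on chromosomes 1 to 22 the shares were 4.63% and 5.52%. Those loci stood higher, with a median of 17.0 FPKM for the mean of both groups, against 5.95 FPKM for the long loci. Among loci with such a mean of at least 5 FPKM, 5 of 189 long loci were at least 2-fold higher (2.65%) and 6 at least 2-fold lower (3.17%), against 2.49% and 3.18% of 6760 shorter loci. In both tables, 18 of the 345 long loci were at least 2-fold higher and 19 at least 2-fold lower. Of the 11869 expressed loci on chromosomes 1 to 22, 369 (3.11%) were higher and 505 (4.25%) lower by this rule. Among the 71 long loci whose mean of both groups was under 2 FPKM, 18 were at least 2-fold higher in KO cells and 7 at least 2-fold lower. Among the 67 of 20 FPKM or more, 0 were at least 2-fold higher, 1 was at least 2-fold lower, and 59 (88.1%) lay within 1.5-fold. Of the shorter loci at that level, 86.6% lay within 1.5-fold.

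At several loci with the largest negative differences, 1 transcript listed at 0 in KO cells made the whole difference. The locus chr1:78695283-79005434 stood at 0.170 FPKM in KO cells and 20.7 FPKM in WT cells. Of this, ENST00000391006 held 0 FPKM in KO cells and 20.5 FPKM in WT cells, with wild type bounds of 17.9 to 22.1 FPKM, and its p-value in the authors' deposited table was 0.147. The other 7 transcripts of the locus summed to 0.170 FPKM in KO cells and 0.137 FPKM in WT cells.

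The locus chr4:105389469-106041157 showed the same form. ENST00000606234 was listed at 0 in KO cells and at 44.8 FPKM in WT cells, with wild type bounds of 40.8 to 46.4 FPKM and p = 0.174 in the authors' deposited table. Its other transcripts summed to 3.26 FPKM in KO cells and 0.862 FPKM in WT cells, so that the locus without its highest transcript was 3.78-fold higher in KO cells, not lower. One of them, ENST00000394767, stood at 0.917 FPKM in KO cells and 0.301 FPKM in WT cells with q = 0.166 in the authors' deposited table. At chr21:22370633-22915650 the transcript ENST00000408283 was listed at 0 in KO cells and at 27.8 FPKM in WT cells, while the other 7 transcripts summed to 2.05 FPKM in KO cells and 0.807 FPKM in WT cells.

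Of the 10 largest negative differences, ranked by the log2 ratio after 1 FPKM was added to both sums and with the same sign in both tables, 6 had a highest transcript listed at 0 in KO cells. The other 3 of these 6 were chr2:215674953-216003151, chr8:96216684-96822364 and chr11:78363876-79151992, where the highest transcripts stood at 0 FPKM in KO cells and at 7.64, 5.98 and 17.5 FPKM in WT cells. None of these 6 transcripts was called, and 1 of them was not tested. Without the highest transcript, 5 of the 10 loci had the higher sum in KO cells and 5 in WT cells. Among those higher in KO cells, this sum was below 1 FPKM in both groups at chr1:78695283-79005434 and chr2:215674953-216003151. Among those higher in WT cells, the same held at chr7:140774032-141180180 and chr8:96216684-96822364. Of the remaining 4 loci, 3 held a called transcript, described above. The last, chr12:129556270-130388211, stood at 0.996 FPKM in KO cells and 13.5 FPKM in WT cells, but at 3.71 FPKM in KO cells in the tracking table. Its highest transcript ENST00000542535 had 0.980 FPKM in KO cells and 8.95 FPKM in WT cells, and its p-value in the authors' deposited table was 0.0013.

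Of the 6603 transcripts of long loci, 13 were listed at 0 in KO cells and at 5 FPKM or more in WT cells, and 1 the other way round. Over the 204092 transcripts of the whole series these numbers were 579 and 227, so 13 is no larger a share of the listed transcripts than in the series. That comparison depends on the denominator. Only 22.7% of the transcripts of long loci were tested, against 42.1% over the whole table, and shares among tested transcripts are not given here. All 13 stood at 0 for the knockout in both tables, 11 were tested and 0 were called, with a smallest p-value of 0.0395 in the authors' deposited table. The wild type bounds began above 0 for 10 of the 13 and at 0 for the other 3, the widest being 0 to 21.2 FPKM around 5.44 FPKM for ENST00000529771 in the tracking table. Over the 13, the distance from the middle of the bounds to either bound was a median of 30.9% of the value, and 6.01% at the narrowest. It was a median of 81.1% of the value for transcripts of long loci between 5 and 50 FPKM in WT cells that were above 0 in KO cells. How many wild type libraries carried these transcripts was not analysed here, since there is no value per library.

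**Figure D4:**
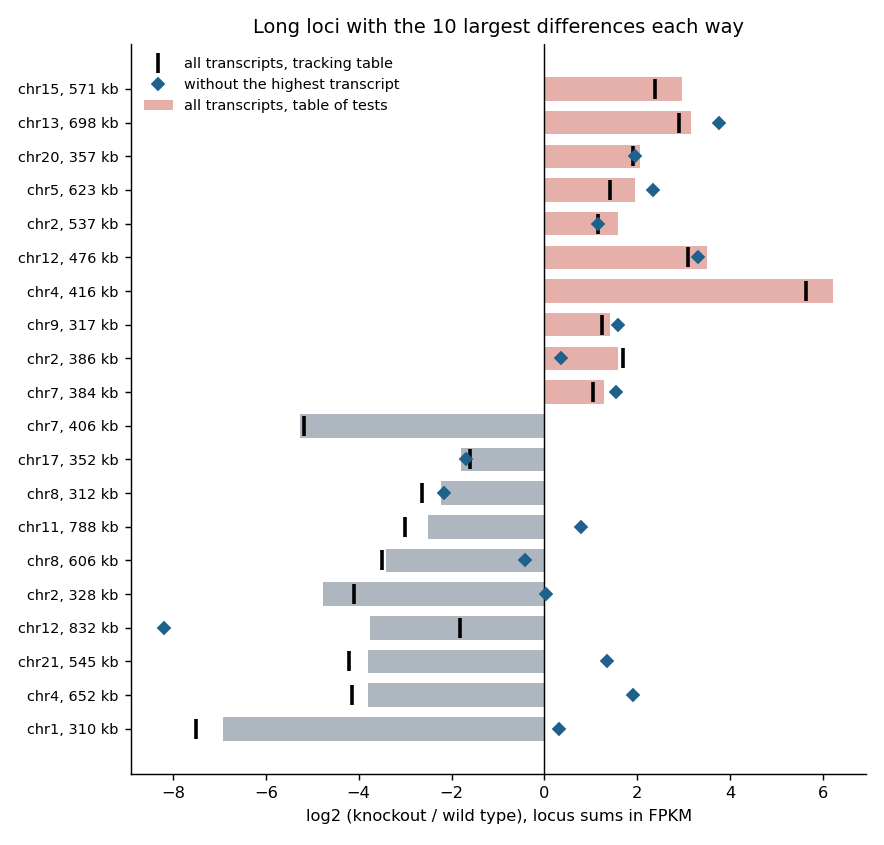
Log2 ratio of knockout over wild type sums for the 10 largest positive (top) and the 10 largest negative differences among long loci, ranked after adding 1 FPKM. Bars show all transcripts in the table of tests, ticks the tracking table and diamonds the sum without the highest transcript, which is left out where it is 0 in a group; at 5 of the 10 negative bars the diamond lies above 0, led by chr4 (652 kb) and chr21 (545 kb).

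Of the 10 largest positive differences, ranked in the same way, 2 held a call, at chr13:107820883-108519083 and chr20:10618332-10975572, and at 8 the sum without the highest transcript was also higher in KO cells. That remainder was small at the chr13 locus, 0.166 FPKM in KO cells and 0.0123 FPKM in WT cells. At chr5:136310987-136934068 the locus stood at 4.56 FPKM in KO cells and 1.18 FPKM in WT cells, and at 2.75 FPKM in KO cells and 0.542 FPKM in WT cells without its highest transcript. At chr9:14081842-14398982, a locus of 14 transcripts, the sum was 6.67 FPKM in KO cells and 2.51 FPKM in WT cells, and its highest transcript ENST00000380959 had a p-value of 0.0548 in the authors' deposited table. At chr2:111490150-111875799, ENST00000448118 stood at 3.52 FPKM in KO cells and 0.893 FPKM in WT cells with a p-value of 0.00675 in that table.

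The other 5 of these loci likewise held no called transcript. The locus chr2:45878484-46415129 stood at 9.70 FPKM in KO cells and 3.22 FPKM in WT cells, and chr7:144149034-144533488 at 7.58 FPKM in KO cells and 3.11 FPKM in WT cells. The locus chr12:125671382-126146917 stood at 1.82 FPKM in KO cells and 0.161 FPKM in WT cells. At chr15:27216429-27787137 nearly the whole sum lay in ENST00000554978, with 3.02 FPKM in KO cells and 0.386 FPKM in WT cells and p = 0.135 in the authors' deposited table. At chr4:137717877-138133953 the leading transcript ENST00000512039 had 1.29 FPKM in KO cells and was listed at 0 in WT cells. In the tracking table all 10 loci were at least 2.05-fold higher in KO cells.

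Within a long locus, transcripts seldom moved all in 1 direction. Of the 216 long loci with at least 3 tested transcripts above 0 in both groups, 20 had each of them higher in KO cells, 6 had each of them lower, and 190 (88.0%) were mixed, against 88.6% at shorter loci. Transcripts of a locus share reads, so their directions are not independent. Over the 250 long loci whose sum without the highest transcript was expressed, that sum had the sign of the whole at 186 (74.4%), against 77.2% of shorter loci. The highest transcript held a median of 48.3% of the sum at the 120 expressed long loci with 10 to 14 transcripts and 40.7% at the 1896 shorter loci with as many. Its bounds lay apart between the groups at 17 of 345 long loci (4.93%), 4 of them with the knockout higher and 13 with it lower, against 2.56% of all expressed loci on chromosomes 1 to 22. At 10 of these 17 the bounds of a group were 0 to 0, as they were at 145 of the 304 loci behind the 2.56%. The directions of the 304 are not given here.

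By chromosome, the long loci followed the other loci on chromosome 3. There 31 expressed long loci had a median log2 ratio of -0.16, and the 633 other expressed loci one of -0.23. In the tracking table the medians were -0.24 for the long and -0.23 for the other loci. Of the 30 long loci that start before 180 Mb, 19 were lower in KO cells in the table of tests and 25 in the tracking table. All 4 expressed long loci on chromosome 10 below 27 Mb were lower in KO cells in both tables. Their median was -0.30, against -0.43 over the 74 other loci there. In the tracking table the order was reversed, with -0.69 for the long and -0.39 for the other loci. Over the whole of chromosome 10, the 19 expressed long loci had a median of -0.17 and the 479 other loci one of 0.08. Without chromosome 3 the median over 314 long loci was 0.14. Chromosome 14 had the highest median among those with at least 10 expressed long loci, 0.39 over 10 loci, 9 of them higher in KO cells, while the 373 other loci there had a median of 0.12. The median of chromosome 21 rests on 2 loci, 1 of which is the locus with ENST00000408283 described above.

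**Figure D5:**
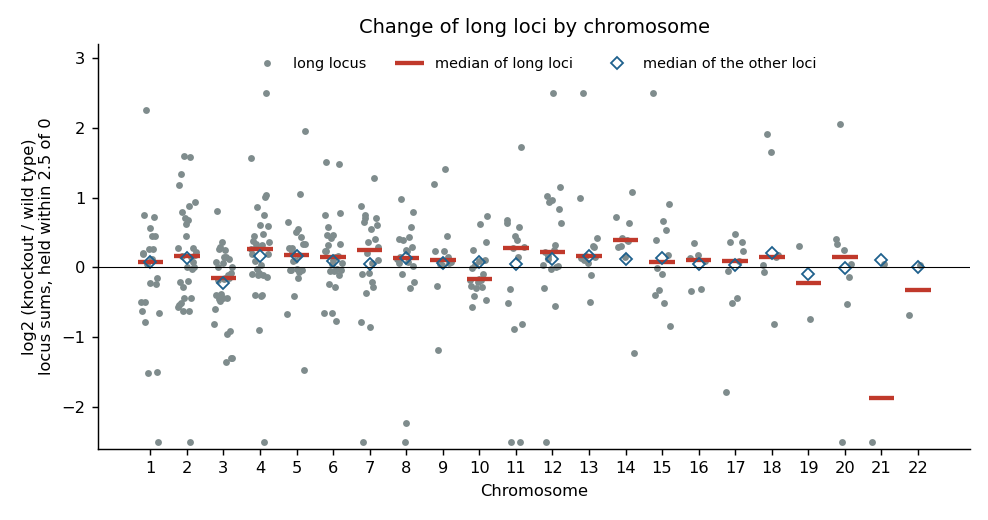
Log2 ratio of knockout over wild type for each expressed long locus (grey points, values beyond 2.5 drawn at 2.5), by chromosome, with the median of the long loci (red line) and of the other expressed loci (open diamond). On chromosome 3 both medians lie below 0, at -0.16 and -0.23.

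Around single long loci the likeness to neighbouring loci was weak. For 309 expressed long loci with at least 5 other expressed loci within 2 Mb, the Spearman correlation of the log2 ratio with the median of those neighbours was 0.195, and 0.119 over the 283 that lie off chromosome 3. In the tracking table it was 0.114 over the 309. Other long loci count among the neighbours, neighbouring long loci share neighbours, and all values share the same libraries, so these are descriptions. For the 78 long loci with the lowest neighbours, the medians were 0.02 for the long loci and -0.09 for the neighbours. For the 78 with the highest neighbours they were 0.25 for the long loci and 0.29 for the neighbours.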

How the data were processed

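RNA depleted of ribosomal RNA was sequenced, per the labels' protocols, though the label of 1 WT library gives the ChIP protocol instead. The submitters' processing notes name TopHat, Cuffdiff, Bowtie 1.1.2 and hg19, with no role or order. The annotation release is not named there. The authors deposited FPKM with bounds per transcript and group, and a table of tests with FPKM, log2 fold, a test statistic (a score with no fixed range), p-value and q-value, per the file headers. Columns were assigned by group name.

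FPKM were summed per locus for value_1 (knockout) and value_2 (WT). The fold was recomputed as knockout over wild type, without a pseudocount. No test between libraries could be made, so the authors' q-value was used. The members, lists and named-locus rule were chosen with earlier results of these data known. The rule named loci with calls, the 10 highest, the 10 largest differences each way, the 5 longest and those next to the length limit; transcripts next to the threshold and those listed at 0 were added after their values were seen. The gene lists could not be applied without names. Starts are counted from 1. The locus sums were tested on simulated data with a known shift, which checks the code alone and not the measured values. The simulated data held no transcript at 0 in a single group and no difference between the authors' tables. P-values may measure only technical spread. Alternatives were the table, limits, sums and scaling. Sums and medians were computed with pandas 2.3.3 and numpy 2.4.6 in Python 3.11.15, rank correlations with scipy 1.17.1 and figures with matplotlib 3.10.9.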

Additional observations from a re-analysis of the deposited data

Results flagged for a closer look

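In the table of tests, 212 transcripts of long loci stood at 0 for KO cells while the tracking table gave them a value above 0. For WT cells 6 transcripts did so. The shares, 3.21% of the transcripts of long loci for KO cells and 0.0909% for WT cells, lay beside 3.29% and 0.0951% of all 204092 transcripts, so the mismatch is one of the whole table. At 10 of the 212 the tracking value of KO cells was 1 FPKM or more, led by ENST00000507117 with 4.78 FPKM. The libraries behind each column are not named in the labels or headers, and the cause was not tested.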

How the results depend on the processing

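No paired analysis was possible because the tables hold 1 value per group, and for the same reason no library could be left out; the depth is unknown. With no spread between libraries there is no yardstick for how far a median may move, so each value is given. The median log2 ratio of long loci, 0.12, was 0.06 (0.057) in the tracking table and 0 after 1 FPKM or 0.1 FPKM was added to the sums of all 605 long loci, 68 of them at 0 in both groups. It was 0.116 at a lower limit of 0.5 FPKM and 0.071 at 5 FPKM, 0.142 from 200000 bases and 0.0639 from 500000 bases, 0.103 with no limit on transcripts and 0.107 with fewer than 10. It was 0.138 for the highest transcript alone, 0.125 with both groups scaled to an equal total, 0.145 without chromosome 3, 0.168 over tested transcripts and 0.0927 without the highest transcript. Keeping loci with a failed estimate could not change it, since 0 long loci had one. The difference from shorter loci, 0.05, was -0.022 in the tracking table and -0.00186 from 500000 bases. In the same order of settings it was 0.053 and 0.00846 at the lower limits, 0.0819 from 200000 bases, 0.0406 and 0.0592 for the limits on transcripts, 0.0827 for the highest transcript, 0.0927 over tested transcripts and 0.0113 without the highest. The 9 called transcripts (0.602% of those tested) became 11 (0.735%) at a q-value of 0.1 and 28 (1.87%) at an unadjusted p under 0.01. The number was 16 of 3327 (0.481%) from 200000 bases and 3 of 444 (0.676%) from 500000 bases. The 47 of 345 loci with a 2-fold difference, 27 higher and 20 lower in KO cells, became 15 of 203 at a lower limit of 5 FPKM, 6 higher and 9 lower, and 40 of 338 in the tracking table, 19 higher and 21 lower. Over tested transcripts they were 44 of 325, 31 higher and 13 lower. Without the highest transcript they were 55 of 250, 32 higher and 23 lower. Sums over tested transcripts and sums without the highest transcript were added after seeing the data. Among the loci named for calls, level or difference, the sign of the log2 ratio turned without the highest transcript at those led by ENST00000390708 (0.78), ENST00000473748 (-0.10), ENST00000543528 (0.35), ENST00000282030 (-0.84), ENST00000582992 (0.38), ENST00000455621 (-0.16), ENST00000391006 (0.31), ENST00000408283 (1.35), ENST00000392825 (0.18), ENST00000384544 (0.031), ENST00000415070 (0.021), ENST00000606234 (1.92) and ENST00000341045 (-1.92). The remaining sums were below 1 FPKM in both groups at the loci of ENST00000282030, ENST00000341045, ENST00000384544, ENST00000391006 and ENST00000582992. No log2 ratio could be taken where the remaining sum was 0 in KO cells. The loci of ENST00000467270, ENST00000554978 and ENST00000512039, higher in KO cells as a whole, were such cases. Their remaining sums in WT cells were 0.206, 0.00215 and 0.0174 FPKM. The sign also turned at the locus of ENST00000582992 over tested transcripts (0.31) and at that of ENST00000502784 in the tracking table (0.13). Among the longest loci and those next to the length limit, it turned without the highest transcript at ENST00000465330 (-1.29), ENST00000427448 (-2.05) and ENST00000509770 (-0.038). In the tracking table it turned at ENST00000465330 (-0.026) and ENST00000427448 (-0.020), the latter from 0.0008. Why these values turned was not tested beyond leaving out the transcript.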
